A study of Mus musculus with 18 samples.

Results

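Mammary tumours of nulliparous mice that lacked Snai2 and had no metastasis were compared with mammary tumours of nulliparous mice that had intact Snai2 and metastasis. The comparison takes 7 of the 18 arrays in the series: 3 from knockout mice (KO) and 4 from wild-type mice (WT), chosen by genotype, parity and metastasis status in the sample labels. The 1 nulliparous KO tumour from a mouse with metastasis is shown beside them as a reference point and enters no group. At the threshold used, 12 of 42 interferon-stimulated genes were lower in KO tumours, against 0.155% of all genes. So were 3 of 17 genes for antigen presentation by MHC class I. The largest rises among called genes were those of Trpm3, Cnmd and Pglyrp1. The calls rested on few tumours: of 49 over all genes, 0 remained without WT replicate 1, without WT replicate 4 or with the 7 arrays alone.

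Snai2 encodes Slug, a zinc finger repressor that recruits histone-modifying complexes to its targets and takes part in epithelial-mesenchymal transition and in basal mammary cells. ErbB2 (neu) is a receptor tyrosine kinase, and mice that express it in the mammary gland develop luminal tumours that can spread to the lung. Type I and type III interferons signal through Jak kinases to a complex that holds Stat2 and Irf9 and binds interferon-stimulated response elements near genes for antiviral effectors, RNA sensors and antigen presentation. Interferon-gamma acts on an overlapping set of genes, in part through Irf1.

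RNA of each tumour was measured on 1 single-colour Affymetrix array, and all values below are log2 expression levels as deposited. All mice carried the ErbB2 transgene of the strain FVB/N-Tg(MMTVneu)202Mul/J, driven by the MMTV promoter, which is active mainly in mammary epithelium. The Snai2 deletion came from the strain B6;129S1-Snai2tm2Grid/J; it is carried in the germ line, so the stroma and immune cells of a KO tumour lacked Snai2 as well. The KO group is Snai2 KO, ERBB2+, nulliparous and without metastasis (n = 3); the WT group is Snai2 WT, ERBB2+, nulliparous and with metastasis (n = 4); the reference array is Snai2 KO, ERBB2+, nulliparous and with metastasis (n = 1). The same contrast in parous mice, KO without metastasis (n = 3) against WT with metastasis (n = 4), was set beside it. No source used here gives the ages of the mice. Genotype and metastasis status differ together, so what goes with the one and what goes with the other cannot be told apart. Mice from crosses of these strains can also differ in background genes, which the labels do not resolve. In RNA from whole tumours, fewer cells of a type and less RNA per cell cannot be told apart either.

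Snai2 itself was dim in all 7 tumours. Its level was 6.79, 6.61 and 6.36 in the KO tumours and 6.90, 7.07, 6.75 and 6.70 in the WT tumours, and the groups overlapped. The difference, KO minus WT, was -0.27 (SE 0.14, limma adjusted p = 0.46), with an exact permutation p of 0.171 (2-sided, 35 splits, of which the smallest possible p is 0.0571). On each array Snai2 lay between the 25.0 and 34.8 percentiles of genes, and no source used here gives the position of its probes relative to the deletion. Erbb2 lay at the 98.7 percentile or above on every array. It averaged 12.79 ± 0.12 (SD, n = 3) among KO tumours and 12.67 ± 0.20 (SD, n = 4) among WT tumours, with an exact permutation p of 0.514. The probes of Erbb2 may read the transgene, the gene of the mouse or both.

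The labelled tissue was checked against defining markers. The luminal keratins Krt8 and Krt18 and the epithelial adhesion gene Epcam had mean levels at or above the 99.2 percentile of genes over the 7 tumours, while the basal keratins Krt5 and Krt14 were dim, at the 25.4 and 32.8 percentiles. WT replicate 1 stood apart in skeletal muscle markers: the mean level of 25 such genes was 10.24 there and 7.07 to 8.49 in the other 6 tumours, and the actin gene Acta1 reached 12.84 against 8.18 to 10.67. WT replicate 3 had the highest T and NK cell marker level, at 7.28 against 6.38 to 6.81 in the other 6. Values without WT replicate 1 stand below beside the muscle, adipocyte and milk lists and Lyve1, and values without WT replicate 3 beside the T and NK cell markers.

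Of 19938 genes, 49 passed the threshold of an adjusted p under 0.05 (limma, Benjamini-Hochberg adjustment over all genes), which is 0.246% of those tested. In KO tumours 31 were lower (0.155%) and 18 higher (0.0903%), and 19 and 5 of these changed at least 2-fold. In none of the 49 did the KO and WT tumours overlap. Over all genes, all KO tumours lay below all WT tumours in 6.8% and above them in 6.05%. The 49 were called on these same values, so the lack of overlap adds no support. At an unadjusted p under 0.05 there were 2490 genes, 1272 lower and 1218 higher, and the median difference over all genes was -0.01. The count rested on few tumours. It was 0 without WT replicate 1 or WT replicate 4, 1 without KO replicate 2, 28 without WT replicate 3 and 179 without WT replicate 2. It also rested on the groups that share the estimate of the spread: 1 gene passed when only the 7 arrays were fitted, 128 when the near-identical pair of arrays was kept apart and 215 with array weights. It was 7, 152 and 20 without replicate 1, 2 or 3 of the parous KO tumours lacking metastasis, and 6, 22, 7 and 31 without replicate 1, 2, 3 or 4 of the parous WT tumours. All 49 kept their direction in each of these fits. Their lack of overlap fixed that in advance, so it carries no test.

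**Figure D1:**
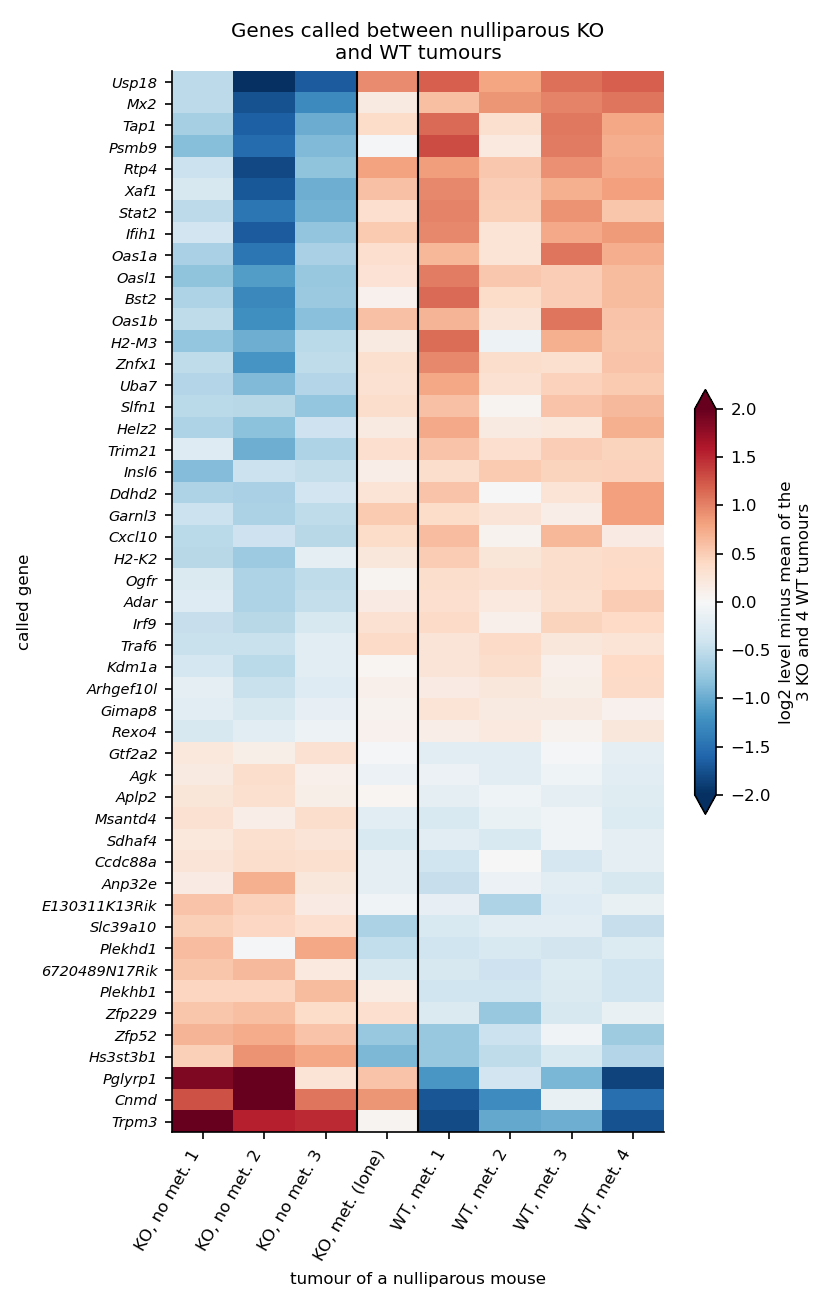
Log2 level of each of the 49 called genes (rows) in 8 tumours of nulliparous mice (columns), relative to the mean of the 3 KO and 4 WT tumours; blue is lower, red is higher, and the colour scale stops at 2 log2 units either way. The 31 upper genes are lower in all 3 KO tumours, and in each of them the lone KO tumour with metastasis lies above all 3.

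The largest group among the 31 genes called lower was the interferon-stimulated list, with 12. Promoter sequences are shown for 3 of them that hold the core of the interferon-stimulated response element and for 1 that does not, because this is the site through which the interferon response is known to act. The motif searched was GAAA, any 2 bases and GAAA again, which on the other strand reads TTTC, any 2 bases and TTTC, in the 250 bases upstream of the annotated start of transcription. Sequences are RefSeq's for GRCm38.p6, run 5′ to 3′ on the gene's strand and end at the base before the start, and capitals mark the motif. The windows are chr10:128270248-128270497 (plus strand) for Stat2, chr5:120907526-120907775 (minus strand) for Oas1a, chr8:71537473-71537722 (minus strand) for Bst2 and chr11:72301379-72301628 (plus strand) for Xaf1.
Stat2: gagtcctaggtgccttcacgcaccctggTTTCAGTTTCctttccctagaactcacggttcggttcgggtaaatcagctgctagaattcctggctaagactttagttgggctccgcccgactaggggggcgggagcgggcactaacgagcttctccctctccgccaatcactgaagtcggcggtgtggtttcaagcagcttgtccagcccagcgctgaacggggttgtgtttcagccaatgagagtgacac
Oas1a: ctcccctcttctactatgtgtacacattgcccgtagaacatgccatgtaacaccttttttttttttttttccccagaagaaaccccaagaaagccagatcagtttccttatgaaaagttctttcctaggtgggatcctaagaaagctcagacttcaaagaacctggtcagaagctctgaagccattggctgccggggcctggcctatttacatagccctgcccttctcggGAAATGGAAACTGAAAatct
Bst2: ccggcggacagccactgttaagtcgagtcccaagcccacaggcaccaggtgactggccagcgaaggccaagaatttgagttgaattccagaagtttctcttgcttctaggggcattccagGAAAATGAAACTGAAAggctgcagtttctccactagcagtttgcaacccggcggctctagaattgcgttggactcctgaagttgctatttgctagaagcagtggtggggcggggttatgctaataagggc
Xaf1: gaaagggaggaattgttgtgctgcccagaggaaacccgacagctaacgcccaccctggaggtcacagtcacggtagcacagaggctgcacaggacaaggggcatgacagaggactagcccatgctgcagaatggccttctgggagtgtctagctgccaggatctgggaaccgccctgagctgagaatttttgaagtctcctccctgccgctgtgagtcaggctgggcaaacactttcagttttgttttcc

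In the Stat2 window the motif starts at position -222. Oas1a and Bst2 each hold 2 overlapping copies, which start at -20 and -14 in Oas1a and at -130 and -124 in Bst2. The motif was present in 10 of 30 interferon-stimulated genes with a window (33.3%), against 529 of 15562 tested genes with a window (3.4%). Within the list it was present in 3 of 8 members called lower (37.5%) and in 7 of 22 members not called (31.8%). Over all genes called lower it was present in 4 of 24 (16.7%), the fourth being Cxcl10, and over all genes called higher in 0 of 18. These are descriptions of the letters in 1 window per gene; 12 members of the list had no window in the table.

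Of 42 measured interferon-stimulated genes, all 42 had a lower mean in KO tumours. Of these, 12 fell past the threshold, against 0.155% of all genes, and 0 rose. In 39 of 42 all 3 KO tumours lay below all 4 WT tumours, which was so for 6.8% of all genes; the exceptions were Ifi27, Ifi27l2a and Ifitm3. The median difference was -1.63, against -0.01 over all genes. The mean level of the list was 9.36, 8.39 and 9.10 in the KO tumours and 10.93, 10.33, 10.59 and 10.70 in the WT tumours. KO replicate 2 was the lowest, and the lowest WT tumour stood above the highest KO tumour. The 30 members that were not called had adjusted p-values from 0.0518 to 0.475.

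Among the signal transducers, Stat2, a transcription factor activated at the type I and type III interferon receptors, had levels of 9.80, 8.88 and 9.38 in KO and 11.31, 10.80, 11.22 and 10.87 in WT tumours. The groups did not overlap, and the difference was -1.70 (SE 0.25, adjusted p = 0.033). Irf9, the DNA-binding subunit that acts with Stat2, fell by less, at -0.77 (SE 0.14, adjusted p = 0.0477). Usp18, a protease that removes the ubiquitin-like protein Isg15 and also dampens signalling at the type I interferon receptor, had the largest fall of all called genes. It stood at 10.32, 8.75 and 9.17 in KO and at 12.03, 11.62, 11.93 and 12.03 in WT tumours. The WT tumours lay close together while the KO tumours spread more widely, below all of them. The difference was -2.49 (SE 0.45, adjusted p = 0.0477), a 5.60-fold lower level. Uba7, the activating enzyme that starts the attachment of Isg15 to proteins, fell as well (-1.19, SE 0.21, adjusted p = 0.0439).

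Among RNA sensors and antiviral effectors, the cytosolic sensor of long double-stranded RNA Ifih1 (Mda5) fell by 1.66 on the log2 scale (SE 0.29, adjusted p = 0.0425). Mx2, a dynamin-like GTPase that restricts viruses, had levels of 7.79, 6.56 and 7.03 in KO and 8.91, 9.19, 9.30 and 9.37 in WT tumours. It fell by 2.07 (SE 0.35, adjusted p = 0.042), and the lowest WT tumour was above the highest KO tumour by more than the range within WT. The 2′-5′ oligoadenylate synthetase genes make the messenger that activates RNase L, or in some members have lost that activity. Of these Oas1a stood at 9.18, 8.38 and 9.19 in KO and at 10.50, 10.11, 10.90 and 10.56 in WT tumours (difference -1.60, SE 0.25, adjusted p = 0.0385). Oas1b (-1.50, SE 0.27) and Oasl1 (-1.57, SE 0.27) were called too, but Oas1a and Oas1b are close paralogs whose probes may read both. The largest fall in the list, -3.35 for Oas2 (SE 0.63), did not pass (adjusted p = 0.0518); Oas2 is named after its values were seen. Bst2 (tetherin), which holds budding virions at the cell surface, had levels of 9.37, 8.69 and 9.24 in KO and 11.12, 10.35, 10.48 and 10.62 in WT tumours. The groups were apart here too, and the difference was -1.55 (SE 0.27, adjusted p = 0.042). Rtp4, a chaperone-like protein of the interferon response that lies on chromosome 16 as Snai2 does, fell by 1.78 (SE 0.28, adjusted p = 0.0385), and Xaf1, a pro-apoptotic factor, by 1.74 (SE 0.30, adjusted p = 0.042).

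The 7 interferon-inducible GTPases of the Gbp and Irg families, which act on vacuoles that hold microbes, all lay below 0, with a median of -1.80 and no overlap between the groups in any, against 6.8% of all genes. None was called. The members with the smallest p were Gbp7 at -1.60 (SE 0.32, adjusted p = 0.0596), Gbp3 at -2.04 (SE 0.45, adjusted p = 0.076) and Gbp9 at -1.80 (SE 0.48, adjusted p = 0.133). Gbp7 had levels of 9.56, 8.81 and 9.53 in KO and 11.26, 10.26, 11.32 and 10.77 in WT tumours.

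The genes for interferons, their receptors and their signal transducers had a median nearer to 0. Of 27 measured members 19 lay below 0 and 8 above, 0 were called, and the median was -0.19, against -1.63 in the interferon-stimulated list. The called transducers Stat2 and Irf9, given above, were counted in the interferon-stimulated list and not in this one. All 3 KO tumours lay below all WT tumours in 4 of 27, against 6.8% of all genes. Ifnlr1, the specific chain of the interferon-lambda receptor, stood at 8.65, 8.15 and 8.37 in KO and at 9.08, 9.06, 9.36 and 9.20 in WT tumours (-0.79, SE 0.15, adjusted p = 0.0518). Jak1, the kinase shared by the interferon receptors, was at -0.61 (SE 0.16, adjusted p = 0.131), and the transcription factor Irf1 at -0.92 (SE 0.26, adjusted p = 0.151).

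Of 17 genes of MHC class I antigen presentation 16 lay below 0, with a median of -0.73, which was -0.47 without KO replicate 2. Of the 17, 3 fell past the threshold, against 0.155% of all genes, and 0 rose. In 10 of 17 all KO tumours lay below all WT tumours, against 6.8% of all genes. Tap1, a subunit of the transporter that moves peptides into the endoplasmic reticulum, had levels of 10.31, 9.34 and 9.98 in KO and 12.10, 11.29, 12.02 and 11.75 in WT tumours. No KO tumour reached the lowest WT tumour, WT replicate 2, and the difference was -1.91 (SE 0.34, adjusted p = 0.0436). Psmb9, a catalytic subunit of the immunoproteasome, fell by 1.90 (SE 0.32, adjusted p = 0.042). The non-classical class I gene H2-M3, which presents formylated peptides, fell by 1.33 (SE 0.24, adjusted p = 0.0477). H2-K2, a class I gene outside the list, fell by 0.86 (SE 0.15, adjusted p = 0.042); class I genes are similar in sequence, so its probes and those of H2-M3 may read other members. At the bottom of the list the chaperone genes Calr and Pdia3 stood at -0.04 and 0.06.

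The 9 MHC class II genes all lay below 0 with a median of -0.59, and none was called. All KO tumours lay below all WT tumours in 2 of 9 (6.8% of all genes), H2-Oa at -0.27 (SE 0.08, adjusted p = 0.181) and the lysosomal protease gene Ctss at -1.02 (SE 0.34, adjusted p = 0.233). The class II transactivator Ciita stood at -0.53 (SE 0.16, adjusted p = 0.179). Of 38 chemokines and cytokines 1 was called, against 0.155% of all genes called lower. This was Cxcl10, an interferon-induced attractant of T and NK cells. It had levels of 6.26, 6.38 and 6.25 in KO and 7.41, 6.87, 7.46 and 6.97 in WT tumours and fell by 0.88 (SE 0.15, adjusted p = 0.0436). In the rest of that list the groups did not overlap in 12 genes lower and 2 genes higher in KO tumours, against 6.8% and 6.05% of all genes, and the median of the list was -0.10.

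The other genes called lower were outside these lists. Several are known as interferon-induced or as parts of innate signalling. Among them are Znfx1, an antiviral helicase (-1.28, SE 0.22, adjusted p = 0.042), Helz2 (-1.09, SE 0.17, adjusted p = 0.0385), Trim21, a cytosolic antibody receptor and ubiquitin ligase (-1.07, SE 0.19, adjusted p = 0.0464), and Adar, an RNA-editing enzyme (-0.78, SE 0.12, adjusted p = 0.0385). Slfn1, a Schlafen family gene of lymphocytes and myeloid cells, had levels of 6.09, 6.07 and 5.85 in KO and 7.22, 6.69, 7.20 and 7.28 in WT tumours. It was dim, and WT replicate 2 stood below the other WT tumours, but no KO tumour reached it (difference -1.10, SE 0.14, adjusted p = 0.0156). Ogfr, a receptor for an opioid growth factor, was tight in both groups, with 11.18, 10.86 and 10.96 in KO and 11.82, 11.78, 11.82 and 11.87 in WT tumours. The gap between the groups was larger than the range within either (difference -0.83, SE 0.10, adjusted p = 0.0141). Insl6, a relaxin-like peptide, fell by 1.04 (SE 0.13, adjusted p = 0.0141). Traf6, a ubiquitin ligase of Toll-like receptor signalling, fell by 0.66 (SE 0.11, adjusted p = 0.042). The remaining genes were Ddhd2 (-0.97), a phospholipase, and Garnl3 (-0.92), Arhgef10l (-0.53), Gimap8 (-0.42) and Rexo4 (-0.37).

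Kdm1a (Lsd1) is the histone demethylase that the SNAG domain of Snail family repressors binds. It was the only called member of 15 genes for corepressors of Snai2, against 0.155% of all genes called lower. Its level was 9.82, 9.64 and 9.97 in KO and 10.43, 10.53, 10.27 and 10.57 in WT tumours, without overlap. The difference was -0.64 (SE 0.09, adjusted p = 0.033). In the list 5 members lay below 0 and 10 above, with a median of 0.08, which was -0.04 without KO replicate 1. Kdm1a lies on chromosome 4, and the values of that chromosome are given further on.

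The genes called higher in KO tumours shared no list. Trpm3, a heat- and steroid-gated cation channel whose gene hosts a microRNA, had levels of 11.25, 10.32 and 10.26 in KO and 6.97, 7.74, 7.79 and 7.02 in WT tumours. The lowest KO tumour was far above the highest WT tumour, and the rise of 3.23 (SE 0.54, adjusted p = 0.042), a 9.38-fold difference, was the largest of all called genes. Cnmd (chondromodulin), a cartilage glycoprotein that inhibits vessel growth, stood at 10.58, 11.60 and 10.39 in KO and at 7.61, 8.06, 9.16 and 7.80 in WT tumours. WT replicate 3 was the nearest to the KO tumours, and the rise was 2.70 (SE 0.42, adjusted p = 0.0385). Pglyrp1, an antibacterial peptidoglycan recognition protein stored in neutrophil granules, had levels of 12.18, 12.46 and 10.58 in KO and 9.15, 9.92, 9.40 and 8.46 in WT tumours. It varied within both groups, KO replicate 3 was the nearest to the WT tumours, and the rise was 2.51 (SE 0.46, adjusted p = 0.0477).

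Pglyrp1 was the only called gene of 17 neutrophil markers, against 0.0903% of all genes called higher. Of that list 6 lay below 0 and 11 above, with a median of 0.01. In 3 of 17 all KO tumours lay above all WT tumours, against 6.05% of all genes. The mean level of the list was 7.96, 7.50 and 7.34 in KO and 7.52, 7.32, 7.27 and 7.18 in WT tumours, with overlap. Besides Pglyrp1 these were Cd177, a surface glycoprotein of neutrophils, at 1.98 (SE 0.52, adjusted p = 0.131), and Retnlg, a resistin-like gene, at 0.47 (SE 0.17, adjusted p = 0.286). Cd177 had levels of 10.64, 11.18 and 11.03 in KO and 9.58, 9.80, 8.15 and 8.36 in WT tumours. The calcium-binding protein genes S100a8 and S100a9 stood at 0.53 and 0.31 with overlap (adjusted p = 0.487 and 0.612). The granule genes Elane, Mpo and Camp lay close to 0, at 0.00, -0.05 and 0.00, and the Fc receptor gene Fcgr4 was the lowest, at -0.85 (adjusted p = 0.407). The members of this list other than Pglyrp1 are named after their values were seen.

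Hs3st3b1, a sulfotransferase that modifies heparan sulfate, had levels of 11.06, 11.48 and 11.36 in KO and 9.82, 10.07, 10.28 and 9.99 in WT tumours, with a rise of 1.26 (SE 0.17, adjusted p = 0.0156). Plekhb1, a membrane-associated protein with a pleckstrin homology domain, was tight in both groups, with 11.53, 11.54 and 11.74 in KO and 10.71, 10.71, 10.81 and 10.70 in WT tumours (0.87, SE 0.11, adjusted p = 0.0141). The groups overlapped in neither gene. The zinc finger genes Zfp52 (1.15, SE 0.18, adjusted p = 0.0385) and Zfp229 (0.89, SE 0.15, adjusted p = 0.042) rose too, but belong to a family of similar genes whose probes may be shared. The zinc transporter Slc39a10 rose by 0.71 (SE 0.12), Plekhd1 by 0.79 (SE 0.15), the histone chaperone Anp32e by 0.64 (SE 0.12) and Ccdc88a (girdin), an actin-binding signalling protein, by 0.54 (SE 0.09). Smaller rises were those of Sdhaf4 (0.46), an assembly factor of respiratory complex II, Msantd4 (0.45), the amyloid precursor-like gene Aplp2 (0.41), the mitochondrial lipid kinase Agk (0.38) and Gtf2a2 (0.37), a subunit of TFIIA. The other 2 of the 18 are predicted genes.

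**Figure D2:**
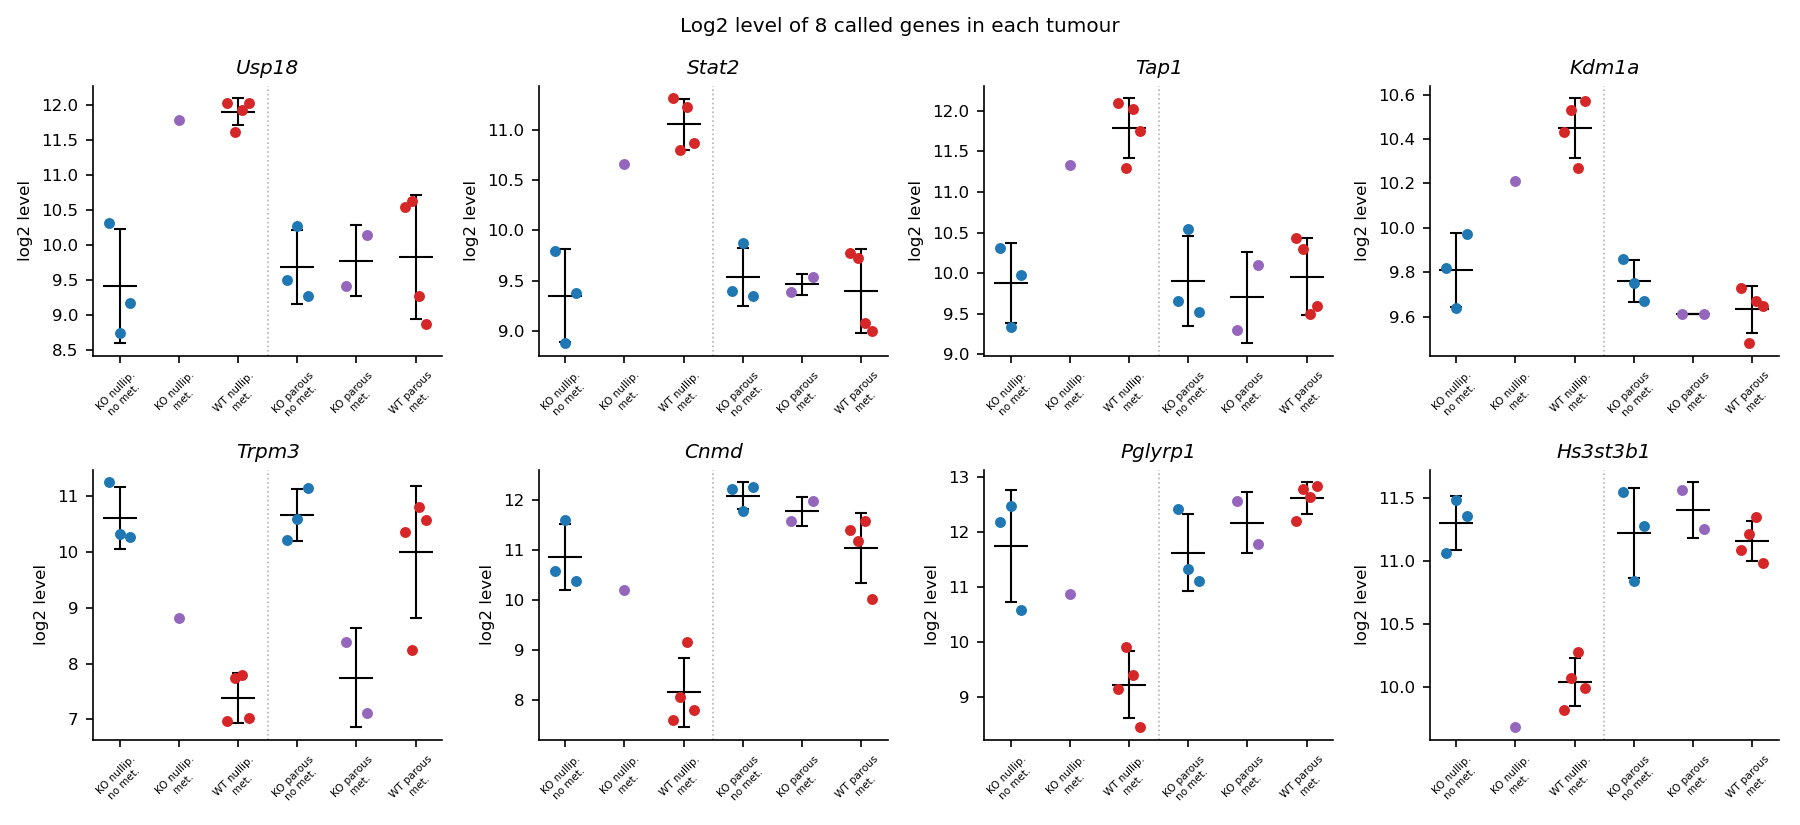
Log2 level of 8 called genes in each tumour (points) of 6 groups, with the mean and SD where a group has more than 1 sample; blue is KO without metastasis, purple KO with metastasis and red WT with metastasis, and the dotted line parts nulliparous from parous mice. Usp18, Stat2, Tap1 and Kdm1a are high in the nulliparous WT tumours and in the lone nulliparous KO tumour with metastasis, and Trpm3 lies at 8.82, 8.38 and 7.12 in the KO tumours with metastasis.

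In parous mice the same contrast, KO without metastasis minus WT with metastasis, gave 0 called genes (0%) by limma and 1149 at an unadjusted p under 0.05, with a smallest adjusted p of 0.689. It rests on other tumours, though both contrasts share 1 estimate of the spread. Of the 31 genes lower in nulliparous KO tumours, 14 were below 0 in parous mice, against 47.2% of all genes, and their parous differences ran from -0.48 to 0.33. Their median was 0.02 in parous and -1.10 in nulliparous mice. Of the 18 higher genes, 13 were above 0 in parous mice, against 52.8% of all genes, with a median of 0.05 against 0.75. The difference between the nulliparous and the parous contrast was tested for every gene and gave 0 called genes (0%), with 1922 at an unadjusted p under 0.05 and a smallest adjusted p of 0.267 (limma). The 49 genes had adjusted p-values from 0.267 to 0.547 in that test. No gene was thus shown to differ between the contrasts at the threshold; 8 genes passed without WT replicate 2, 3 without KO replicate 3, and 1 without KO replicate 2 or without parous KO replicate 2 lacking metastasis. In the parous contrast itself 1 gene, Crim1, passed with array weights.

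**Figure D3:**
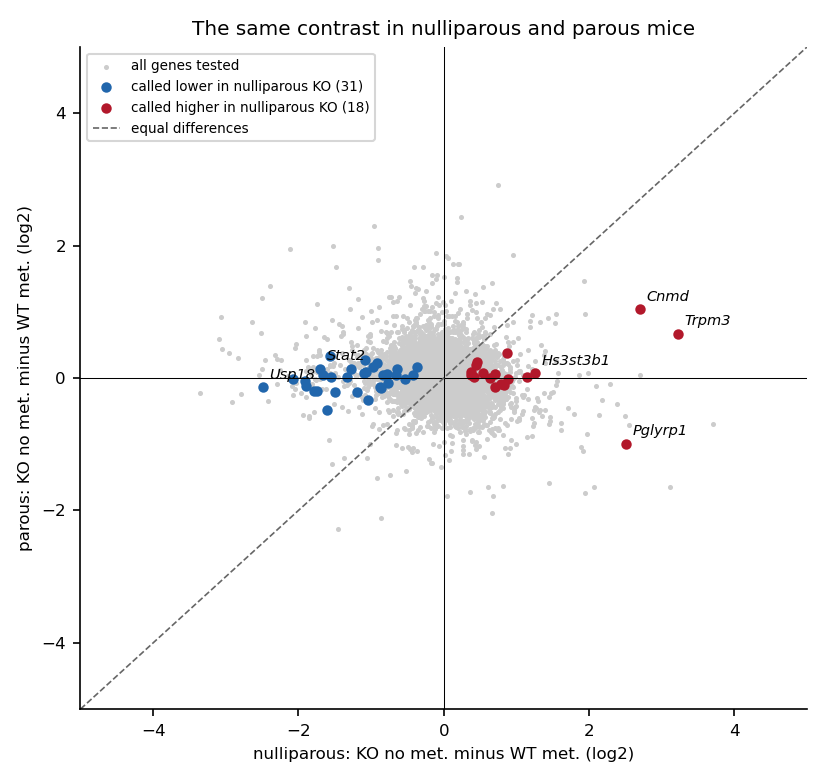
Log2 difference between KO tumours without metastasis and WT tumours with metastasis in nulliparous mice (horizontal axis) and in parous mice (vertical axis) for each of 19938 genes; blue and red points are the 31 and 18 genes called in nulliparous mice, and the dashed line marks equal differences. Called genes spread along the horizontal axis, while their parous differences lie between -0.99 and 1.04.

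Side by side, Usp18 stood at -2.49 in nulliparous and -0.14 in parous mice, Stat2 at -1.70 and 0.14, and Tap1 at -1.91 and -0.05. For Stat2 the highest parous KO tumour without metastasis stood at 9.87 and the highest parous WT tumour at 9.78, so both parous groups lay below the lowest nulliparous WT tumour, at 10.80. Trpm3 was at 0.67 (SE 0.54) in parous mice, where the WT tumours ran from 8.25 to 10.81. Cnmd kept its direction in parous mice at 1.04 (SE 0.42). Pglyrp1 had the opposite sign there at -0.99 (SE 0.46), with parous WT tumours from 12.20 to 12.83. Hs3st3b1 was at 0.07 (SE 0.17), with all 4 parous WT tumours above the highest nulliparous WT tumour.

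The interferon-stimulated list had a parous median of 0.06. Its mean level was 8.93, 9.86 and 8.81 in the parous KO tumours without metastasis, 9.52, 9.62, 8.88 and 8.74 in the parous WT tumours and 8.88 and 9.50 in the parous KO tumours with metastasis. No parous tumour reached the lowest nulliparous WT tumour, at 10.33. The MHC class I list had a parous median of -0.05.

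**Figure D4:**
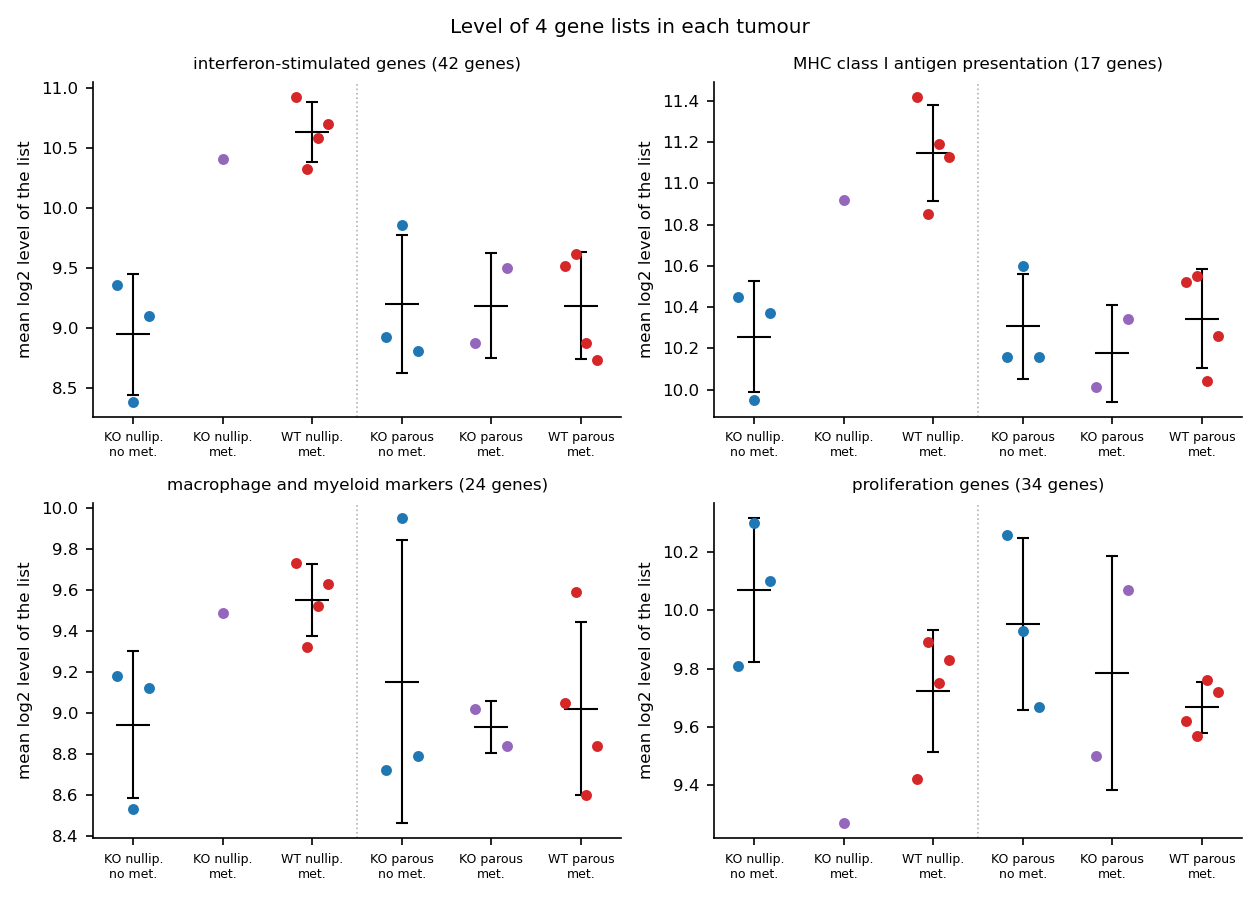
Mean log2 level of 4 gene lists in each tumour (points) of 6 groups, with the mean and SD where a group has more than 1 sample; colours are blue for KO without metastasis, purple for KO with metastasis and red for WT with metastasis. For the interferon-stimulated genes the 4 nulliparous WT tumours lie between 10.33 and 10.93 and the lone nulliparous KO tumour with metastasis at 10.41, while the parous tumours lie between 8.74 and 9.86.

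The lone KO tumour with metastasis lay on the WT side for genes called lower. Its level was above all 3 KO tumours without metastasis in 31 of 31 such genes, which was so for 24.3% of all genes, and within the range of the 4 WT tumours in 16. It stood at 11.78 for Usp18, at 10.66 for Stat2, at 11.33 for Tap1 and at 10.21 for Kdm1a. The genes were called on low values in the 3 other KO tumours, so these counts are a description and carry no test, and the tumour has no replicate. For genes called higher it was below all 3 KO tumours in 17 of 18, against 30.4% of all genes. These genes were called on high values in the same 3 KO tumours, so this count carries no test either. The lone tumour lay nearer the WT mean in 31 of 31 genes called lower and in 13 of 18 called higher, against 61.4% of all genes. Its level was 8.82 for Trpm3, between the groups, 9.68 for Hs3st3b1, below the WT tumours, and 10.20 for Cnmd, above them. For Pglyrp1, at 10.87, it lay among the KO tumours.

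Markers of T and NK cells, macrophages, dendritic cells and B cells mostly lay below 0 beside the interferon-stimulated genes, with 0 of them called, and their part in that result was not tested. The neutrophil list, given above, did not share this direction. Of 32 T and NK cell markers all 32 lay below 0, with a median of -0.29, where 53.4% of all genes lay below 0. In 18 of 32 all KO tumours lay below all WT tumours, against 6.8% of all genes. The mean level of the list ran from 6.38 to 6.44 in KO and from 6.58 to 7.28 in WT tumours, and without WT replicate 3 the median was -0.20. The NK receptor gene Ncr1 stood at -0.54 (SE 0.10, adjusted p = 0.0506), the cytotoxic granule gene Nkg7 at -1.70 (SE 0.36, adjusted p = 0.0717) and granzyme B (Gzmb) at -1.64 (SE 0.38, adjusted p = 0.0837). Nkg7 had levels of 6.33, 6.25 and 6.62 in KO and 7.83, 7.14, 9.43 and 8.01 in WT tumours, so WT replicate 3 was far above the rest. Without that tumour Nkg7 passed, at -1.26 (SE 0.18, adjusted p = 0.0272), while Gzmb stood at -1.24 (SE 0.27, adjusted p = 0.0863) and Ncr1 at -0.51 (SE 0.11, adjusted p = 0.0863). The lone KO tumour with metastasis had a list level of 6.77, within the WT range. The defining T cell gene Cd3e was at 7.31 to 7.37 in KO and 7.53 to 8.44 in WT tumours, with a difference of -0.57 (SE 0.16, adjusted p = 0.15), and of -0.40 (SE 0.11, adjusted p = 0.149) without WT replicate 3.

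Of 24 macrophage and myeloid markers 23 lay below 0, with a median of -0.61 and 0 called. In 7 of 24 all KO tumours lay below all WT tumours, against 6.8% of all genes. Their mean level ran from 8.53 to 9.18 in KO and from 9.32 to 9.73 in WT tumours. The Fc receptor gene Fcgr1 stood at -0.89 (SE 0.24, adjusted p = 0.134), its signalling chain Fcer1g at -0.93 (SE 0.33, adjusted p = 0.252) and the adaptor Tyrobp at -0.91 (SE 0.34, adjusted p = 0.288). Csf1r, the receptor that macrophages depend on, was at 9.70, 9.13 and 9.72 in KO and at 10.31, 9.76, 10.05 and 10.25 in WT tumours. In parous mice the median of the list was 0.12.

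Of 13 dendritic cell markers 12 lay below 0 (median -0.19), with the chemokine receptor gene Ccr9 at -0.37 (SE 0.08, adjusted p = 0.08). Of 19 B and plasma cell markers 18 lay below 0 (median -0.13). The list's mean level ran from 7.08 to 7.15 in KO and from 7.20 to 7.35 in WT tumours, and was highest in the lone KO tumour with metastasis, at 7.91. Cd79a and Cd79b, genes of the B cell receptor, stood at -0.31 and -0.34 (adjusted p = 0.084 and 0.187). Pou2af1, a transcriptional coactivator, stood at -0.29 (adjusted p = 0.164). All KO tumours lay below all WT tumours in 6 of the 13 dendritic cell markers and in 6 of the 19 B and plasma cell markers, against 6.8% of all genes, and neither list had a called gene.

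**Figure D5:**
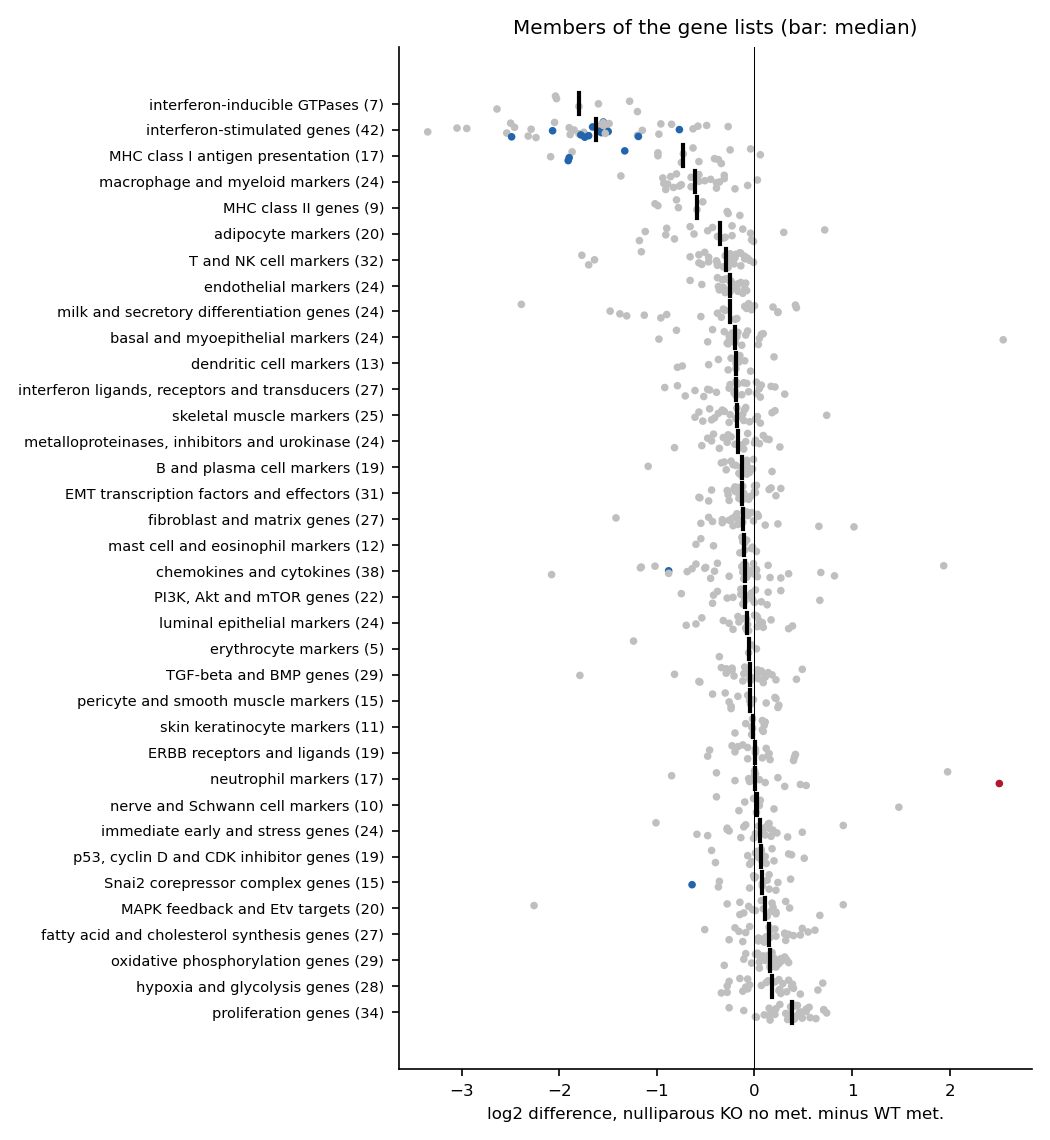
Log2 difference between nulliparous KO tumours without metastasis and WT tumours with metastasis for each member (points) of 36 gene lists, with the number of measured genes in brackets; blue and red points are called lower and higher, grey points are not called, and the black bar is the median. The interferon-inducible GTPases and the interferon-stimulated genes have medians of -1.80 and -1.63, and the proliferation genes have the highest median, 0.38.

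Markers of the stroma gave no called gene. The 24 endothelial markers all lay below 0 with a median of -0.25, but the groups did not overlap in 1 alone, against 6.8% of all genes with KO below WT. The lymphatic receptor gene Lyve1 stood at -0.54 (SE 0.28, adjusted p = 0.464), and at -0.23 (SE 0.18, adjusted p = 0.795) without WT replicate 1. Of 27 fibroblast and matrix genes 21 lay below 0 (median -0.12, and 0.03 without WT replicate 2). All KO tumours lay below all WT tumours in 2 of 27, Pi16, a marker of adventitial fibroblasts, at -0.55 (SE 0.27, adjusted p = 0.429), and the matrix protein gene Dpt (dermatopontin) at -1.42 (SE 0.81, adjusted p = 0.511). The proteoglycan gene Vcan lay the other way, at 1.02 (SE 0.57, adjusted p = 0.499), and its groups overlapped. Adipocyte markers had a median of -0.35, which was -0.15 without WT replicate 1, and the hormone-sensitive lipase gene Lipe stood at -0.62 (SE 0.15, adjusted p = 0.111). Skeletal muscle markers had a median of -0.18, which was 0.41 without WT replicate 1 and 0.02 without KO replicate 1.

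Proliferation genes lay higher in KO tumours. Of 34 measured genes 32 were above 0 and 2 below, with a median of 0.38 and 0 called; in 12 all 3 KO tumours were above all WT tumours, which was so for 6.05% of all genes. The mean level was 9.81, 10.30 and 10.10 in KO and 9.42, 9.89, 9.75 and 9.83 in WT tumours, so KO replicate 1 lay within the WT range. Cyclin B2 (Ccnb2) stood at 0.56 (SE 0.16, adjusted p = 0.161), the mitotic kinesin Kif20a at 0.74 (SE 0.23, adjusted p = 0.198) and Foxm1, a transcription factor of the cell cycle, at 0.48 (SE 0.15, adjusted p = 0.214). In parous mice the median was 0.30, with all 34 above 0. The lone KO tumour with metastasis had the lowest level of the 8 nulliparous tumours, at 9.27.

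Oxidative phosphorylation genes were above 0 in 25 of 29, against 46.6% of all genes, with a median of 0.16. In 10 of 29 all KO tumours were above all WT tumours, against 6.05% of all genes. The complex I subunit genes Ndufa9, Ndufs1 and Ndufb5 stood at 0.33, 0.35 and 0.28 (adjusted p = 0.131, 0.18 and 0.271). Genes of fatty acid and cholesterol synthesis were above 0 in 20 of 27 (median 0.15). Their leading members were Hmgcs1 at 0.35 (adjusted p = 0.229), Cyp51 at 0.49 (adjusted p = 0.28) and Elovl5 at 0.62 (adjusted p = 0.284), which act in sterol synthesis and fatty acid elongation. Neither list had a called gene.

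Lists of epithelial identity and of ERBB signalling had medians from -0.25 to 0.11. Luminal markers had a median of -0.08 (14 of 24 below 0), with Cited1 at -0.17 (adjusted p = 0.229) and Elf5, a regulator of secretory cells, at -0.32 (adjusted p = 0.456). Basal and myoepithelial markers had a median of -0.20 (19 of 24 below 0). All KO tumours lay below all WT tumours in 7 of 24, against 6.8% of all genes, and above them in 1, against 6.05%. Among the 7 were Ngfr at -0.20 (SE 0.09, adjusted p = 0.356) and the keratin gene Krt6a at -0.19 (SE 0.08, adjusted p = 0.39). The 1 above was the membrane peptidase gene Mme, at 12.21, 12.13 and 9.98 in KO and at 9.65, 7.72, 8.98 and 9.22 in WT tumours. KO replicate 3 was close to the highest WT tumour, and the difference of 2.55 (SE 0.54) did not pass (adjusted p = 0.0701). Milk and secretory genes had a median of -0.25 (19 of 24 below 0, and -0.08 without WT replicate 1). The lipid droplet gene Plin2 stood at -1.13 (adjusted p = 0.115), the phosphate transporter Slc34a2 at -1.31 (adjusted p = 0.151) and the prolactin effector Stat5a at -0.55 (adjusted p = 0.263).

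ERBB receptors and ligands had a median of 0.01, with -0.06 without WT replicate 2, and genes of PI3K, Akt and mTOR signalling one of -0.09, led by Mtor at -0.42 (SE 0.12, adjusted p = 0.149). MAPK feedback genes had a median of 0.11. Epha2, an ephrin receptor kinase, had levels of 10.40, 9.08 and 8.67 in KO and 11.50, 11.54, 11.71 and 11.83 in WT tumours. The WT tumours were tight and all above the KO tumours, but the difference of -2.26 (SE 0.51) did not pass (adjusted p = 0.081). The feedback inhibitor Spry2 stood at 0.67 (SE 0.14, adjusted p = 0.0687), with 10.15, 10.41 and 10.15 in KO and 9.45, 9.63, 9.73 and 9.47 in WT tumours. None of these lists had a called gene.

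Of 31 transcription factors and effectors of epithelial-mesenchymal transition, the programme for which Snai2 is best known, 24 lay below 0 with a median of -0.13, and 0 were called. The TGF-beta receptor genes Tgfbr1 and Tgfbr2 stood at -0.57 (SE 0.27, adjusted p = 0.416) and -0.56 (SE 0.31, adjusted p = 0.494). Genes of the TGF-beta and BMP pathways had a median of -0.05, with Ltbp2, a matrix protein, at -1.79 (SE 0.52, adjusted p = 0.158) and the inhibitory Smad7 at 0.43 (SE 0.14, adjusted p = 0.216). Ltbp2 was low in KO replicates 1 and 2, at 9.66 and 9.29, while KO replicate 3, at 11.88, lay within the WT range of 11.67 to 12.39. Among stress genes Atf3 stood at -1.01 (SE 0.22, adjusted p = 0.0717), and Jund and Jun at -0.48 and -0.59 (adjusted p = 0.195 and 0.322). The CDK inhibitor gene Cdkn1b was at 0.38 (SE 0.10, adjusted p = 0.111).

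The deleted gene's neighbours were examined because a knockout allele brings flanking sequence of its strain. Of 213 genes within 10 Mb of Snai2 on chromosome 16, 111 lay below 0 and 102 above, with a median of -0.01 that changed sign when arrays were quantile-normalized again (0.01). Single genes ran from -1.78 to 3.71. All KO tumours lay below all WT tumours in 10 of the 213 and above them in 14, against 6.8% and 6.05% of all genes. The 1 called gene was Rtp4, against 0.155% of all genes called lower. The smallest adjusted p among the genes not called was 0.0717 (limma). By chromosome, 7 of the 31 genes called lower lie on chromosome 2, which holds 8.73% of placed genes. Chromosomes 5 and 17, with 5.74% and 4.72% of placed genes, hold 4 each, and chromosome 4, with 5.82%, holds 2. The chromosome level, the median deviation of its expressed genes from the mean of the 7 tumours, was lower in KO tumours on chromosome 4 by a difference of -0.253 and on chromosome 2 by -0.123. On chromosome 4, 87.4% of 755 expressed genes lay below 0. On the other chromosomes the share of expressed genes below 0 ran from 28.1% (chromosome 13) to 76.6% (chromosome 2). The level there was -0.232, -0.239 and 0.020 in KO and 0.103, 0.153, -0.014 and 0.167 in WT tumours, so KO replicate 3 and WT replicate 3 overlapped (exact permutation p = 0.114, 0.19 when adjusted over 20 chromosomes). On chromosome 2 the groups did not overlap (exact permutation p = 0.0571, the smallest that 3 against 4 can give, and 0.114 when adjusted). The same p was reached on 9 chromosomes in the other direction (1, 3, 6, 9, 11, 12, 13, 15 and 18), where the level was higher in KO tumours by 0.053 to 0.107. With all genes used, dim ones included, the differences were -0.145 on chromosome 4 and -0.065 on chromosome 2. The lone KO tumour with metastasis had levels of 0.048 on chromosome 4 and -0.109 on chromosome 2. The falls of Kdm1a and Arhgef10l on chromosome 4, at -0.64 and -0.53, and of Ogfr, Traf6 and Rexo4 on chromosome 2, at -0.83, -0.66 and -0.37, stand beside these levels, whose part in them was not tested.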

How the data were processed

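Mammary tumours of mice were measured on Affymetrix arrays. The authors deposited log2 values for 35556 probe sets. The submitters' processing notes name RMA and oligo, and no source used here gives their versions. RMA compresses dim values, and its quantile step removes shifts shared by all genes. Values ran from 3.99 to 14.62 and array medians from 7.60 to 7.67. Arrays give no read depth, and their number limits the precision.

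Of the probe sets 21789 had 1 gene in the platform annotation, 1621 had several and 12146 had none. Each of 19938 genes was represented by its probe set of highest mean, and 19855 matched RefSeq (GRCm38.p6) by Entrez identifier. No source used here gives the build of the annotation.

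Of the KO parous tumours with metastasis, replicates 2 and 3 were nearly identical and counted as 1 sample: the SD of their difference was 0.1029 over 11314 probe sets, against 0.2854 for the next closest of 153 pairs. The tests were made with limma 3.58.1 (R 4.3.3; lmFit and eBayes, 2-sided) on 6 group means over 17 samples, with Benjamini-Hochberg adjustment over all genes and a threshold of 0.05. Per the labels the replicates are biological. Exact permutation tests served for single values. On simulated data of 19938 genes with independent noise the fit recovered 24 of 50 genes changed by 0.5 on the log2 scale, 48 of 50 by 1, 50 of 50 by 2 and 48 of 50 by 3, with 14 false calls. The changed genes were picked at random, so this recovery need not hold for genes that vary together between tumours. In the real data 34 of 42 interferon-stimulated genes were at least 2-fold lower and 12 were called.

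The comparison and the 36 gene lists (788 of 855 entries matched) were chosen with earlier results of these data known. Named genes are Snai2, Erbb2, the 12 largest called rises and falls without overlap, up to 4 called members of each list and, for lists with none, up to 3 with the smallest p; other called genes and defining markers are given by value, and predicted genes are counted. Oas2, Calr, Pdia3 and the neutrophil markers other than Pglyrp1 were named after their values were seen. Chromosome levels leave out the dimmest 40% of genes. Alternatives were other normalizations, probe set and dim gene filters, array weights, eBayes with its trend and robust options, fewer arrays and each tumour left out.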

Additional observations from a re-analysis of the deposited data

Results flagged for a closer look

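In 149 genes and gene lists whose levels are given or summarised, 10 had 1 WT nulliparous tumour far from the other 3 (a gap, relative to the group's range, above Dixon's critical value); chance alone flags about 1 in 20 groups. The 3 KO tumours are too few for this rule. WT replicate 1 stood apart in the muscle genes Myh4, a myosin heavy chain, at 11.01 against 6.43 to 6.61, and Mb (myoglobin), at 10.39 against 9.04 to 9.16, and in the lymphatic gene Lyve1, at 9.14 against 7.76 to 7.95. WT replicate 2 was high in hypoxia and glycolysis genes, with a mean level of 11.42 against 10.46 to 10.53. It was low in Epcam, at 12.62 against 12.71 to 12.72, in Slfn1, at 6.69 against 7.20 to 7.28, and in Tyrobp, at 10.13 against 10.54 to 10.61. WT replicate 3 was high in the T cell gene Cd8a, at 8.26 against 6.97 to 7.16, in Plekhb1, at 10.81 against 10.70 to 10.71, and in oxidative phosphorylation genes, with a mean level of 11.35 against 11.27 to 11.28. For Epcam, Plekhb1 and oxidative phosphorylation the distance was small, and the other 3 tumours were nearly equal.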

How the results depend on the processing

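The count of 49 called genes changed with the setting. The direction of every one of the 49 genes measured in a setting did not change in any of those run. With tumours left out, array weights, the 7 arrays alone or all 18 kept apart, the lack of overlap fixed this in advance. The count was 128 with all 18 arrays kept apart, 215 with array weights, 24 with a limit of 2-fold added and 1 (Dlgap1) with the 7 arrays alone. Tumours left out in turn gave 0 to 179 for the 7 compared and, chosen after seeing the data, 6 to 152 for the others. All 49 were among the genes called with 18 arrays, with array weights and without WT replicate 2. The count was 0 with a replicate block. Deviations of same-numbered KO and WT tumours correlated at 0.07, 0.15 and -0.20, and those of differently numbered ones at -0.28 to 0.23. KO replicates 1 and 2 correlated best with their own number and KO replicate 3 did not. These few values cannot settle whether the numbers pair the tumours. Quantile normalization gave 57, centring 65, the filter on dim genes 53, all probe sets 46, mean probe sets 52 and eBayes with its trend and robust options 45. In parous mice 1 gene (Crim1) passed with array weights. In the difference between the contrasts, tumours left out gave 1 (Plekhd1) to 8 genes where any passed, and 1 (Dlgap1) without KO parous replicate 2 lacking metastasis. The median of the interferon-stimulated list ran from -1.89 to -1.37 over all settings and that of MHC class I from -0.83 to -0.47. Of the checks of single called genes, 107 with a tumour left out and 344 with another setting stayed past the threshold, and 236 and 141 did not. Checks of the other list medians moved by less than the spread between tumours in 234 and 306 cases and by more in 11 and 8. Checks of the levels of chromosomes 2 and 4 stayed within that spread in 4 cases with a tumour left out. With all genes used, 1 stayed within it and 1 moved by more. List medians were not computed over all probe sets, nor that of skin keratinocyte genes after the filter on dim genes. A leave-out that leaves 2 KO tumours rests on the pooled spread, the cause of each change was not tested, and dim genes such as Snai2 may have understated differences.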
